A study of Mus musculus with 8 samples.

Results

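The superfamily of miR-15 and miR-16, miR-322 and miR-503, and miR-103 and miR-107 is a set of microRNAs (miRNAs) whose 5′ ends are alike, and it was followed here in the medium of cultured mouse muscle cells. Its 9 members were chosen by name from the 1881 mouse miRNAs on the array: mmu-miR-15a-5p, mmu-miR-15b-5p, mmu-miR-16-5p, mmu-miR-195a-5p, mmu-miR-322-5p, mmu-miR-322-3p, mmu-miR-503-5p, mmu-miR-103-3p and mmu-miR-107-3p (mmu, for mouse, is left out below). All 9 were tested, 8 of them were detected on all 8 arrays, and miR-195a-5p was detected on 7.

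A miRNA guides silencing proteins to messenger RNAs through its seed, the bases near its 5′ end, so miRNAs that share a seed share many targets. The miR-15/16 family is known for repressing cyclins, cyclin-dependent kinases and the survival factor Bcl2, and in human leukaemia the locus of miR-15a and miR-16-1 is often deleted. In mouse myoblasts, miR-322 (miR-424 in human) and miR-503 are induced during differentiation and promote cell-cycle exit through Cdc25A, and in mouse muscle stem cells miR-195 and its neighbour miR-497 promote quiescence. miR-103 and miR-107 lie in introns of the pantothenate kinase genes and are known as regulators of Dicer and of insulin signalling.

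miRNAs were read in medium from 3 transwell co-cultures of primary leg myocytes, which the study used to ask what muscle cells secrete when they carry a mutation that causes amyotrophic lateral sclerosis (ALS). G93A/G93A (n = 3) had myocytes of B6SJL(Tg-SOD1*G93A)1Gur/J mice in the bottom chamber and in the insert. G93A/WT (n = 3) had those G93A myocytes below and, in the insert, myocytes of B6SJL(Tg-SOD1)2Gur/J mice, and WT/WT (n = 2) had the B6SJL(Tg-SOD1)2Gur/J myocytes in both. All groups therefore carried a human SOD1 transgene, mutant or wild-type, and WT does not mean non-transgenic. The pups were 1 to 3 days old, each sample is labelled male, and the mice were kept as hemizygotes. The bottom chamber received 2.5 and the insert 1.5 (in 1e5 cells), with pores of 0.4 µm between them, and the reverse mixture was not analysed here. Medium was taken at 2 days in vitro. Culture media held 10% foetal bovine or 2% horse serum, and miRNAs of that serum with the same sequence would be read by the same probes. Signal in medium also cannot separate release per cell from the number of cells.

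Between 450 and 563 miRNAs were detected per array. Summed signal ran from 115122 to 202908 units. Every G93A/WT array (143713 to 202908 units, 497 to 563 miRNAs detected) exceeded every array of the other groups (at most 139644 units and 483 miRNAs). Signals were scaled to a common 75th percentile over the 423 miRNAs detected on every array. The scaling thus also removed a difference in brightness between groups, the cause of which was not tested. A floor was set at log2 0.60, and all levels below are log2 scaled signals. Slide positions were inferred from the numbers in the scanner's array names. By these, all arrays lay on 1 slide. The G93A/G93A arrays shared row 2 with WT/WT 2, and the G93A/WT arrays shared row 1 with WT/WT 1. The 2 G93A groups thus shared no row, and a row effect between them can be estimated only through the single pair of WT/WT arrays. The muscle markers miR-1a-3p, miR-133a-3p, miR-133b-3p and miR-206-3p were detected on all arrays, while miR-499-5p was detected on 1 and miR-208b-3p on none. Summed scaled signal of the muscle markers overlapped between groups, at 4094 to 5063 in G93A/G93A, 4341 to 5258 in G93A/WT and 4522 to 5194 in WT/WT. Of 7 epithelial markers (miR-200 family, miR-203-3p and miR-205-5p), 5 were detected, with sums of 0 to 5.36 in G93A/G93A, 61.2 to 85.0 in G93A/WT and 138 to 166 in WT/WT. Of 4 erythroid and serum markers, miR-451a and miR-486a-5p were detected, with sums of 922 to 1381 in G93A/G93A, 1256 to 1416 in G93A/WT and 1012 to 1085 in WT/WT, and both arms of miR-144 were undetected. Of 4 leukocyte markers only miR-223-3p was detected (131 to 159, 133 to 146 and 99.4 to 106.7 in the same order of groups), and the 4 fibroblast markers detected out of 5 summed to 343 to 430 in G93A/G93A, 415 to 553 in G93A/WT and 475 to 517 in WT/WT. The part of these sources in the results below was not tested.

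The mature sequences show why the members are grouped. They are printed 5′ to 3′ from RefSeq on GRCm38.p6, with the seed (bases 2 to 8) in capitals, and all 9 members matched an entry. Of the 9 members, 5 share the seed of miR-16 and differ behind it:
miR-15a-5p: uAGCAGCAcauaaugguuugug
miR-15b-5p: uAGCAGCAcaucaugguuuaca
miR-16-5p: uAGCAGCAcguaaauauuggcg
miR-195a-5p: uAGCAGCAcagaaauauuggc
miR-322-5p: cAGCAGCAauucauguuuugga
The next member differs from that seed only in its last base:
miR-503-5p: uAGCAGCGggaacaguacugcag
In miR-103-3p and miR-107-3p the shared bases sit 1 position nearer to the 5′ end:
miR-103-3p: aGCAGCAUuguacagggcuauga
miR-107-3p: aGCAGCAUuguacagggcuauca
The opposite arm of the miR-322 hairpin has an unrelated seed and belongs to the set by its precursor alone:
miR-322-3p: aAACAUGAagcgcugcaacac

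Counted from 1 at the 5′ end, miR-103-3p and miR-107-3p differed at 1 of 23 bases (G22C). miR-195a-5p and miR-16-5p differed at 2 of the 21 bases compared (A10G and G11U). miR-15a-5p and miR-15b-5p differed at 4 of 22 (A12C, G20A, U21C and G22A), all behind the seed. How far each probe also reads these near-identical relatives was not tested.

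On GRCm38.p6 the members come from 6 chromosomes. miR-15a-5p (chr14:61632075-61632096, minus strand) and a copy of miR-16-5p (chr14:61631936-61631957) lie within the long noncoding RNA gene Dleu2. miR-15b-5p (chr3:69009775-69009796, plus strand) and the other copy of miR-16-5p (chr3:69009918-69009939) lie within Smc4, so the signal of miR-16-5p cannot be assigned to a locus. miR-195a-5p lies at chr11:70235062-70235082, with no other gene spanning its hairpin. miR-322-5p (chrX:53054306-53054327), miR-322-3p (chrX:53054269-53054289) and miR-503-5p (chrX:53054027-53054049) lie on the minus strand within the long noncoding RNA gene C430049B03Rik. miR-103-3p has copies within Pank2 (chr2:131288103-131288125) and Pank3 (chr11:35782447-35782469), and miR-107-3p lies within Pank1 (chr19:34820700-34820722).

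In none of the 3 comparisons did any of the 9 members pass the test, beside 8.01% of all 537 miRNAs tested in G93A/G93A against WT/WT, 4.1% in G93A/WT against WT/WT and 10.6% in G93A/G93A against G93A/WT (limma, adjusted p under 0.05). Group means of 8 of the 9 members were highest in G93A/WT and lowest in G93A/G93A; the exception was miR-15a-5p, with its lowest mean in WT/WT, an order that did not hold without WT/WT 2 or without G93A/G93A 3. The widest gaps between group means were for miR-15a-5p, miR-103-3p and miR-195a-5p. Values for each member follow, starting with the miR-15/16 clusters.

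**Figure D1:**
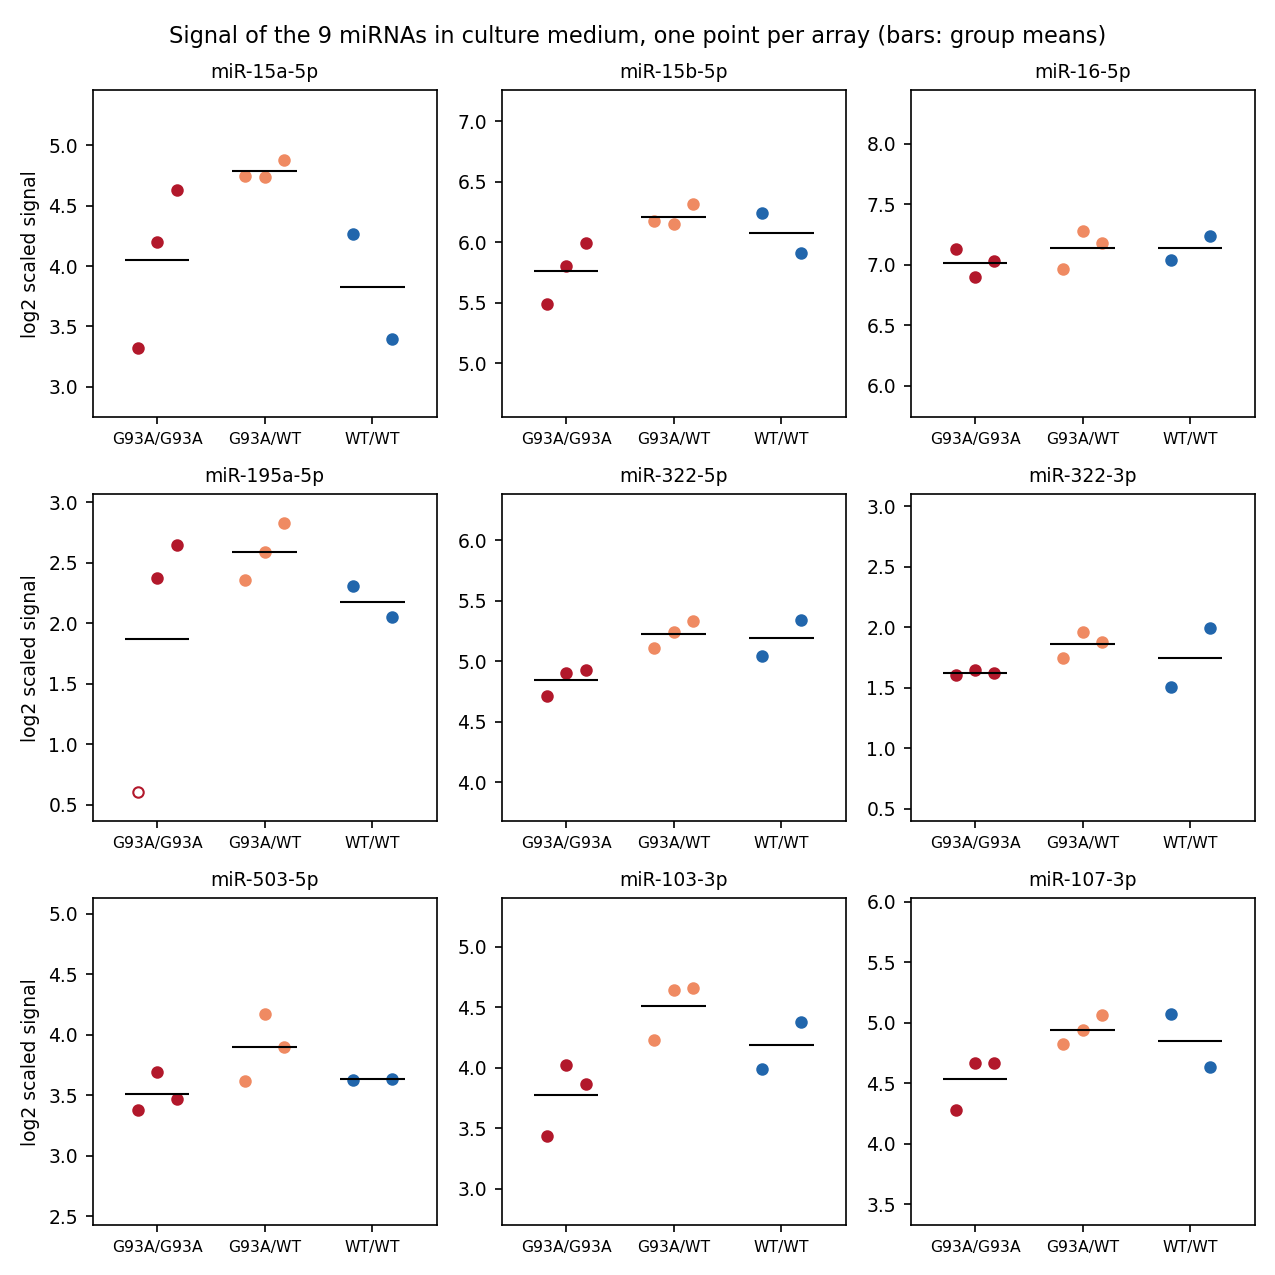
Log2 scaled signal (y axis, each panel spanning the same number of log2 units) of the 9 miRNAs in medium of G93A/G93A, G93A/WT and WT/WT co-cultures (x axis), with 1 point per array, black bars for group means and an open point for the undetected miR-195a-5p, drawn at the floor. miR-16-5p varies least between arrays, and miR-15a-5p is low on G93A/G93A 1 and WT/WT 2 and tightly grouped in G93A/WT.

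miR-15a-5p, which represses Bcl2 and cyclins, had log2 signals of 3.32, 4.20 and 4.63 on the G93A/G93A arrays, 4.74, 4.74 and 4.88 on the G93A/WT arrays, and 4.26 and 3.39 on the WT/WT arrays. The G93A/WT arrays lay above all others. Within G93A/G93A and within WT/WT the arrays spread widely, with SDs of 0.67 and 0.61 against 0.08 in G93A/WT. The difference of G93A/WT against WT/WT was 0.96 ± 0.40 (SE; limma, adjusted p = 0.195), with a 95% interval of 0.03 to 1.89. G93A/G93A differed from WT/WT by 0.22 ± 0.40 (adjusted p = 0.802) and from G93A/WT by -0.74 ± 0.35 (adjusted p = 0.195). Single arrays decided 2 of these values: without WT/WT 2, G93A/WT differed from WT/WT by 0.52 and G93A/G93A from WT/WT by -0.21, and without G93A/G93A 3 the last was -0.07.

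miR-15b-5p, its counterpart in the chromosome 3 cluster, had log2 signals of 5.49, 5.81 and 6.0 in G93A/G93A, 6.17, 6.15 and 6.32 in G93A/WT, and 6.25 and 5.91 in WT/WT. All G93A/G93A arrays lay below all G93A/WT arrays, and the WT/WT arrays overlapped both groups. The difference of G93A/G93A against G93A/WT was -0.45 ± 0.16 (limma, adjusted p = 0.113). Against WT/WT, G93A/G93A differed by -0.31 ± 0.18 (adjusted p = 0.306) and G93A/WT by 0.13 ± 0.18 (adjusted p = 0.672).

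miR-16-5p, the member shared by both clusters and a common reference in blood miRNA assays, had log2 signals of 7.13, 6.90 and 7.03 in G93A/G93A, 6.96, 7.28 and 7.18 in G93A/WT, and 7.04 and 7.24 in WT/WT. The 3 groups overlapped. Its differences were -0.12 ± 0.14 for G93A/G93A against WT/WT (limma, adjusted p = 0.670), 0.00 ± 0.14 for G93A/WT against WT/WT (adjusted p = 0.991) and -0.12 ± 0.13 for G93A/G93A against G93A/WT (adjusted p = 0.525). The 95% interval of the first ran from -0.45 to 0.21, so changes of a smaller size are not excluded by these arrays. Over the 8 arrays its SD was 0.13, the 49th smallest of 423 miRNAs whose median SD was 0.25, and it ranked 108th with median scaling and in the authors' processed values and 64th after quantile normalization. miR-103-3p, also used as a reference, ranked 354th (SD 0.41), miR-107-3p 231st (0.26) and miR-15a-5p 403rd (0.61).

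miR-195a-5p, a brake on cell division in mouse heart and muscle stem cells, was undetected on G93A/G93A 1 and had log2 signals of 2.37 and 2.65 on the other G93A/G93A arrays. It had 2.36, 2.59 and 2.83 in G93A/WT and 2.30 and 2.05 in WT/WT. Where it was detected its signal was 3.60 to 7.08 times its own error, so it was dim. The difference of G93A/G93A against WT/WT was -0.30 ± 0.56 with the undetected array at the floor (limma, adjusted p = 0.803), and 0.33 without that array (adjusted p = 0.353). Against G93A/WT it was -0.72 ± 0.50 with that array (adjusted p = 0.352) and -0.08 without it (adjusted p = 0.799). The G93A/WT arrays lay just above both WT/WT arrays, by 0.41 ± 0.56 between the means (adjusted p = 0.675).

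The other arm of the same hairpin, miR-195a-3p, had a different pattern. The 3 G93A/G93A arrays had it at 3.62, 2.26 and 1.95, G93A/WT 3 had it at 1.76, and it was undetected on the other arrays. Every G93A/G93A array lay above every other array on this scale, whereas in the authors' processed values G93A/G93A 3 (1.17) lay below G93A/WT 3 (1.34). The G93A/G93A mean was 3.53-fold higher than WT/WT, counted against the lowest detected signal of each WT/WT array. That signal belongs to other miRNAs, so miR-195a-3p could lie above it undetected, and this fold is not a lower bound. In the limma fit undetected arrays lay at the common floor. There the G93A/G93A mean exceeded WT/WT by 2.01 ± 0.55 (limma, adjusted p = 0.0758) and G93A/WT by 1.62 ± 0.49 (adjusted p = 0.0761). Neither difference passed the threshold of 0.05. With row as a block, the second was 1.62 ± 1.05 (adjusted p = 0.582). It passed after quantile normalization (adjusted p = 0.0395), without G93A/WT 3 (0.0474) and without G93A/G93A 3 (0.0421). Its highest array, G93A/G93A 1, was the one on which miR-195a-5p was undetected, and miR-15a-3p (1.82) and miR-16-1-3p (1.92) were detected on that array and on no other. The other 5 opposite arms on the array were detected nowhere.

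miR-497a-5p, made from the same transcript as miR-195a in mouse and sharing the miR-16 seed, had log2 signals of 2.63, 2.62 and 2.81 in G93A/G93A, 2.91, 3.15 and 3.07 in G93A/WT, and 2.66 and 2.78 in WT/WT. Its sequence is shown for comparison with the members of that seed (chr11:70234730-70234751, GRCm38.p6, plus strand):
miR-497a-5p: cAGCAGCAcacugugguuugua
The G93A/WT arrays lay above all others. G93A/WT differed from WT/WT by 0.32 ± 0.13 (limma, adjusted p = 0.169), and G93A/G93A differed from G93A/WT by -0.35 ± 0.11 (adjusted p = 0.0811) and from WT/WT by -0.03 ± 0.13 (adjusted p = 0.952). The remaining 4 mouse miRNAs on the array with that seed, miR-195b, miR-6342, miR-6353 and miR-6419, were detected on no array.

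**Figure D2:**
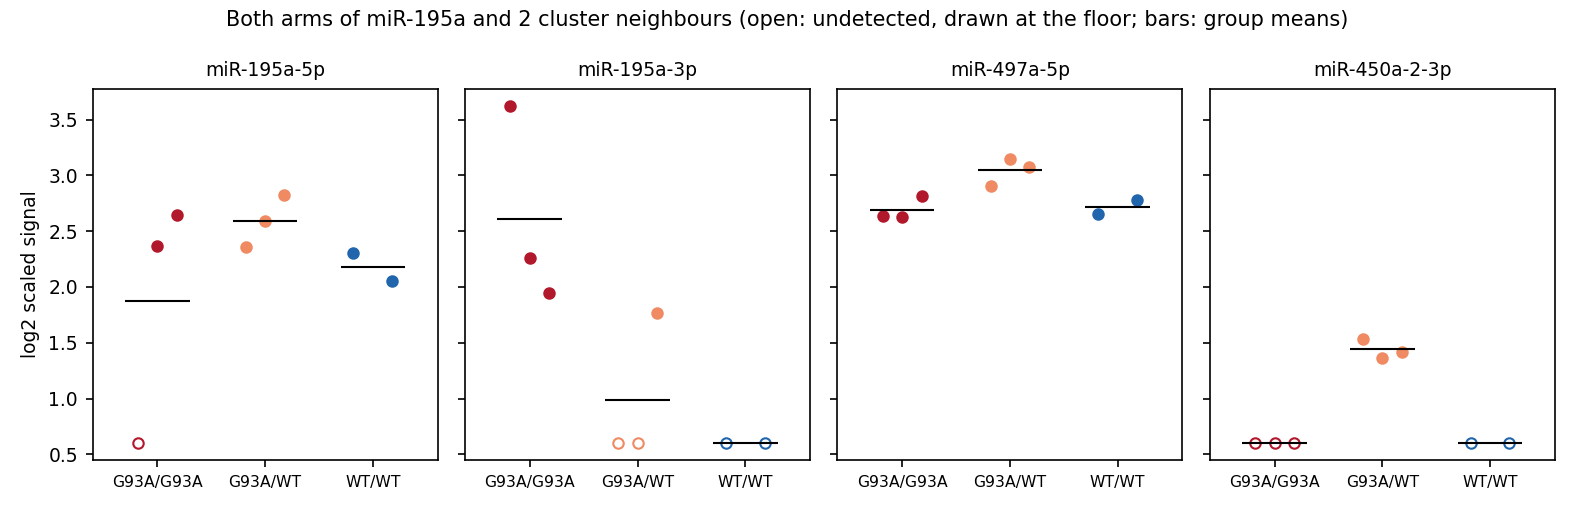
Log2 scaled signal (y axis) of both arms of miR-195a, of miR-497a-5p and of miR-450a-2-3p by group (x axis), with 1 point per array, open points for undetected miRNAs drawn at the floor of 0.60 and black bars for group means. miR-195a-3p appears on the 3 G93A/G93A arrays and on 1 other, miR-195a-5p is missing only from G93A/G93A 1, and miR-450a-2-3p is detected only in G93A/WT.

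miR-322-5p, which promotes cell-cycle exit of mouse myoblasts, had log2 signals of 4.71, 4.91 and 4.92 in G93A/G93A, 5.11, 5.24 and 5.33 in G93A/WT, and 5.05 and 5.34 in WT/WT. The G93A/G93A arrays lay below all other arrays, and the other 2 groups overlapped. Its difference was -0.35 ± 0.14 against WT/WT (limma, adjusted p = 0.172) and -0.38 ± 0.13 against G93A/WT (adjusted p = 0.0922). G93A/WT and WT/WT differed by 0.03 ± 0.14 (adjusted p = 0.902).

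miR-322-3p, from the same precursor, was dim, with log2 signals of 1.60, 1.65 and 1.62 in G93A/G93A, 1.74, 1.96 and 1.88 in G93A/WT, and 1.50 and 1.99 in WT/WT. The WT/WT arrays lay on both sides of the G93A/G93A arrays. G93A/G93A differed from G93A/WT by -0.24 ± 0.14 (limma, adjusted p = 0.289), whereas in the authors' processed values the difference was 0.69 ± 0.15 and passed (adjusted p = 0.0319). After quantile normalization the sign was also positive. The direction for this dim arm therefore rests on the scale used.

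miR-503-5p, the partner of miR-322 in that cluster, had log2 signals of 3.38, 3.69 and 3.46 in G93A/G93A, 3.61, 4.17 and 3.90 in G93A/WT, and 3.63 and 3.63 in WT/WT. The 2 WT/WT arrays agreed closely and lay within the range of both other groups. Its differences were -0.12 ± 0.18 for G93A/G93A against WT/WT (limma, adjusted p = 0.763), 0.26 ± 0.18 for G93A/WT against WT/WT (adjusted p = 0.376) and -0.38 ± 0.16 for G93A/G93A against G93A/WT (adjusted p = 0.152).

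Of 9 other mature miRNAs of the X-chromosome cluster around miR-322 and miR-503, 6 were tested. miR-450a-2-3p was detected on all G93A/WT arrays, at 1.54, 1.37 and 1.42, and on no other array. Undetected arrays were counted at their lowest detected signal. On that count it was 1.57-fold higher in G93A/WT than in WT/WT, and 1.64-fold lower in G93A/G93A than in G93A/WT. That signal belongs to other miRNAs, and miR-450a-2-3p could lie above it undetected, so neither fold is a lower bound. The limma fit used the common floor instead. It gave 0.84 ± 0.10 for G93A/WT against WT/WT (limma, adjusted p = 0.00508). For G93A/G93A against G93A/WT it gave -0.84 ± 0.09 (limma, adjusted p = 0.00154). miR-450a-2-3p passed the detection filter through G93A/WT alone. All arrays of the other groups lay at the floor with no spread, so these p-values are small partly by construction. Brightness differed too: G93A/WT arrays had lowest detected signals of -0.19 to 0.57, against 0.57 to 0.98 on the G93A/G93A arrays and 0.67 to 0.91 on the WT/WT arrays, and the part of brightness in this result was not tested. In the authors' processed values the differences were 0.21 and -0.21 and did not pass (adjusted p = 0.549 and 0.439). With row as a block, the second did not pass (adjusted p = 0.184), and the first did not within row 1 (adjusted p = 0.0673), without WT/WT 1 (adjusted p = 0.0612) or with an intensity trend (adjusted p = 0.0588). The other 5 did not pass in any comparison. Among them miR-542-3p had 1.94, 2.21 and 3.03 in G93A/G93A, 2.96, 3.17 and 3.24 in G93A/WT, and 2.44 and 2.21 in WT/WT, a difference of 0.80 ± 0.30 for G93A/WT against WT/WT (adjusted p = 0.164). miR-542-5p differed by 0.29 ± 0.22 in that comparison (adjusted p = 0.428). All 6 differences were above 0 for G93A/WT against WT/WT, with a median of 0.43, beside 298 of all 537. For miR-450a-2-3p, miR-351-5p and miR-450b-3p the sign came from undetected WT/WT arrays at the floor. miR-351-5p exceeded the floor on G93A/WT 2 alone. For miR-450b-3p, WT/WT 1 was undetected, while WT/WT 2 (2.05) lay above all G93A/WT arrays (1.79, 1.86 and 2.03).

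miR-103-3p, a regulator of Dicer and insulin signalling, had log2 signals of 3.43, 4.02 and 3.87 in G93A/G93A, 4.23, 4.64 and 4.66 in G93A/WT, and 3.99 and 4.38 in WT/WT. All G93A/G93A arrays lay below all G93A/WT arrays, and the WT/WT arrays overlapped both. The difference of G93A/G93A against G93A/WT was -0.74 ± 0.20 (limma, adjusted p = 0.0648; 95% interval -1.22 to -0.26), the lowest adjusted p of any member. It was -0.41 ± 0.23 for G93A/G93A against WT/WT (adjusted p = 0.295) and 0.33 ± 0.23 for G93A/WT against WT/WT (adjusted p = 0.386).

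The call on miR-103-3p lay near the threshold. Adjusted p was 0.0489 when only the 423 miRNAs detected on all arrays were tested, 0.0459 without G93A/WT 1 and 0.225 without G93A/WT 2. With row as a block, it was 0.258, for a difference of -1.12 ± 0.41.

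miR-107-3p had log2 signals of 4.28, 4.67 and 4.66 in G93A/G93A, 4.82, 4.94 and 5.06 in G93A/WT, and 5.07 and 4.63 in WT/WT. Again the 2 G93A groups did not overlap while the WT/WT arrays spanned both. The differences were -0.40 ± 0.17 for G93A/G93A against G93A/WT (limma, adjusted p = 0.148), -0.31 ± 0.19 for G93A/G93A against WT/WT (adjusted p = 0.333) and 0.09 ± 0.19 for G93A/WT against WT/WT (adjusted p = 0.787).

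The first comparison asked how medium of pure mutant cultures differs from that of pure wild-type cultures. In G93A/G93A against WT/WT, 0 of 9 members passed, beside 43 of the 537 miRNAs tested (8.01%; 18 higher and 25 lower). At an unadjusted p under 0.05 the count was 1 of 9, miR-322-5p, against 26.3% of all tested. Differences of 8 of 9 members were below 0 (50.7% of all tested), with a median of -0.30 against -0.01 over all tested and a range of -0.41 to 0.22. That median is the value of miR-195a-5p, which rests on its undetected array at the floor (0.33 without that array). For the 8 members detected on all arrays the median was -0.22, with 7 below 0. It was -0.07 for all 423 miRNAs so detected, of which 241 were below 0. Groups did not overlap for 1 member, again miR-322-5p (40.8% of all tested). Without scaling 5 of 9 were below 0, and in the authors' processed values 7 of 9, miR-16-5p changing sign in both.

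The second asked what changes when the mutant cells share medium with wild-type cells. In G93A/WT against WT/WT, 0 of 9 members passed, beside 4.1% of all tested (18 higher and 4 lower). At an unadjusted p under 0.05 the count was 1 of 9, miR-15a-5p, against 24.2% of all tested. All 9 differences were above 0, from 0.00 to 0.96, with a median of 0.13 against 0.04 over all tested, of which 44.1% were below 0. This direction depended on the scale: with median scaling miR-16-5p, miR-322-5p and miR-107-3p fell below 0, and after quantile normalization miR-322-5p and miR-322-3p did. In the authors' processed values miR-322-3p was at -0.86 ± 0.17 (limma, adjusted p = 0.0570). With row as a block, miR-15b-5p and miR-107-3p were below 0. Groups did not overlap for miR-15a-5p and miR-195a-5p, beside 45.4% of all tested.

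The third set the pure mutant medium against the mixed one. In G93A/G93A against G93A/WT, 0 of 9 members passed, beside 10.6% of all tested (29 higher and 28 lower). At an unadjusted p under 0.05 the count was 5 of 9 (miR-15b-5p, miR-322-5p, miR-503-5p, miR-103-3p and miR-107-3p, all lower), against 32.6% of all tested, or 19.4% counting only lower values. All 9 differences were below 0 (58.1% of all tested), from -0.74 to -0.12, with a median of -0.40 against -0.10 over all tested. Groups did not overlap for 6 members, all lower in G93A/G93A (19.2% of all tested, and 34.8% in either direction): miR-15a-5p, miR-15b-5p, miR-322-5p, miR-322-3p, miR-103-3p and miR-107-3p. The sign of miR-322-3p changed after quantile normalization and in the authors' processed values, and that of miR-16-5p with scaling to the median of miRNAs numbered below 1000. With row as a block, miR-15a-5p (0.13) and miR-107-3p (0.04) lay above 0. The median of the members minus that of all tested miRNAs was -0.31, and -0.38 to -0.30 with other scaling or in the authors' values. The 3 comparisons share samples, so a group that lies high or low enters more than one of them.

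**Figure D3:**
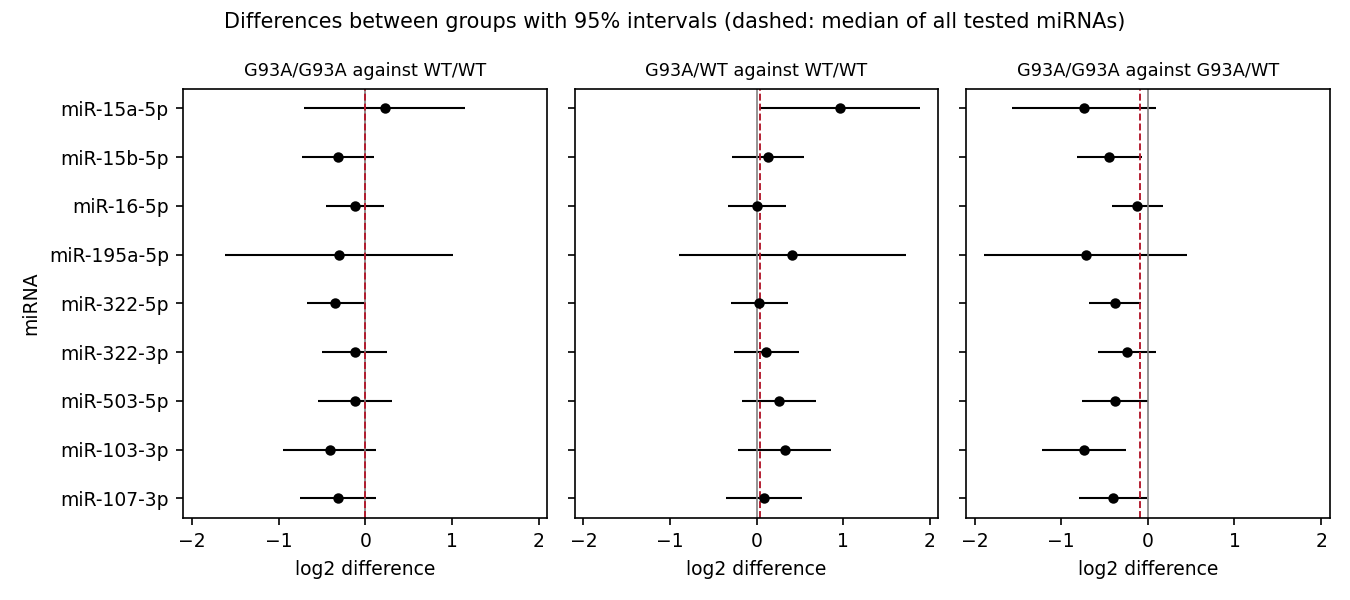
Log2 differences with 95% intervals (x axis) of the 9 miRNAs (y axis) in the 3 comparisons, each named above its panel, with the first-named group minus the second. Dashed lines mark the median over all 537 tested miRNAs. In G93A/G93A against G93A/WT all 9 points lie below 0, and the interval of miR-103-3p runs from -1.22 to -0.26.

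Differences between 2 members of the same array do not depend on a scale factor common to that array, so they were compared as well. They can still depend on other processing. Their own size reflects the probes, and only their change between groups is read. With 6 pairs and 3 comparisons there were 18 exact permutation tests (2-sided), none of which passed after Benjamini-Hochberg adjustment or could have: the smallest p allowed is 0.2 for 3 arrays against 2 and 0.1 for 3 against 3.

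For miR-103-3p minus miR-107-3p, the values were -0.85, -0.65 and -0.80 in G93A/G93A, -0.59, -0.30 and -0.40 in G93A/WT, and -1.08 and -0.25 in WT/WT. The 2 G93A groups did not overlap, with means of -0.76 ± 0.10 and -0.43 ± 0.15 (SD, n = 3 each; difference -0.34, exact permutation p = 0.1, adjusted p = 0.6). The WT/WT arrays fell on both sides of them.

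For miR-15a-5p minus miR-15b-5p, the values were -2.17, -1.61 and -1.37 in G93A/G93A, -1.43, -1.41 and -1.44 in G93A/WT, and -1.99 and -2.52 in WT/WT. The offset was nearly constant in G93A/WT (-1.43 ± 0.01, SD, n = 3) and lay above both WT/WT arrays (-2.25 ± 0.38, n = 2; difference 0.83, exact permutation p = 0.2, adjusted p = 0.6). With limma on the differences, adjusted p was 0.233. For miR-15a-5p minus miR-16-5p, G93A/WT had -2.36 ± 0.17 (n = 3) and WT/WT -3.31 ± 0.76 (n = 2), which did not overlap (difference 0.95, exact permutation p = 0.2, adjusted p = 0.6).

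The 2 arms of miR-322 differed by 3.11, 3.26 and 3.30 in G93A/G93A, 3.37, 3.28 and 3.45 in G93A/WT, and 3.55 and 3.35 in WT/WT. G93A/G93A lay below WT/WT without overlap (difference -0.22, exact permutation p = 0.2, adjusted p = 0.6). This arm difference depended on the processing. For G93A/WT against WT/WT it was -0.08 here and 0.89 in the authors' processed values. For G93A/G93A against G93A/WT it was -0.14 here and -1.03 in those values. miR-322-5p minus miR-503-5p averaged 1.34 ± 0.12 in G93A/G93A, 1.33 ± 0.23 in G93A/WT (SD, n = 3 each) and 1.56 ± 0.20 in WT/WT (n = 2), and the groups overlapped. miR-15b-5p minus miR-16-5p averaged -1.25 ± 0.33, -0.93 ± 0.18 and -1.06 ± 0.38 in the same order of groups, which overlapped too.

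**Figure D4:**
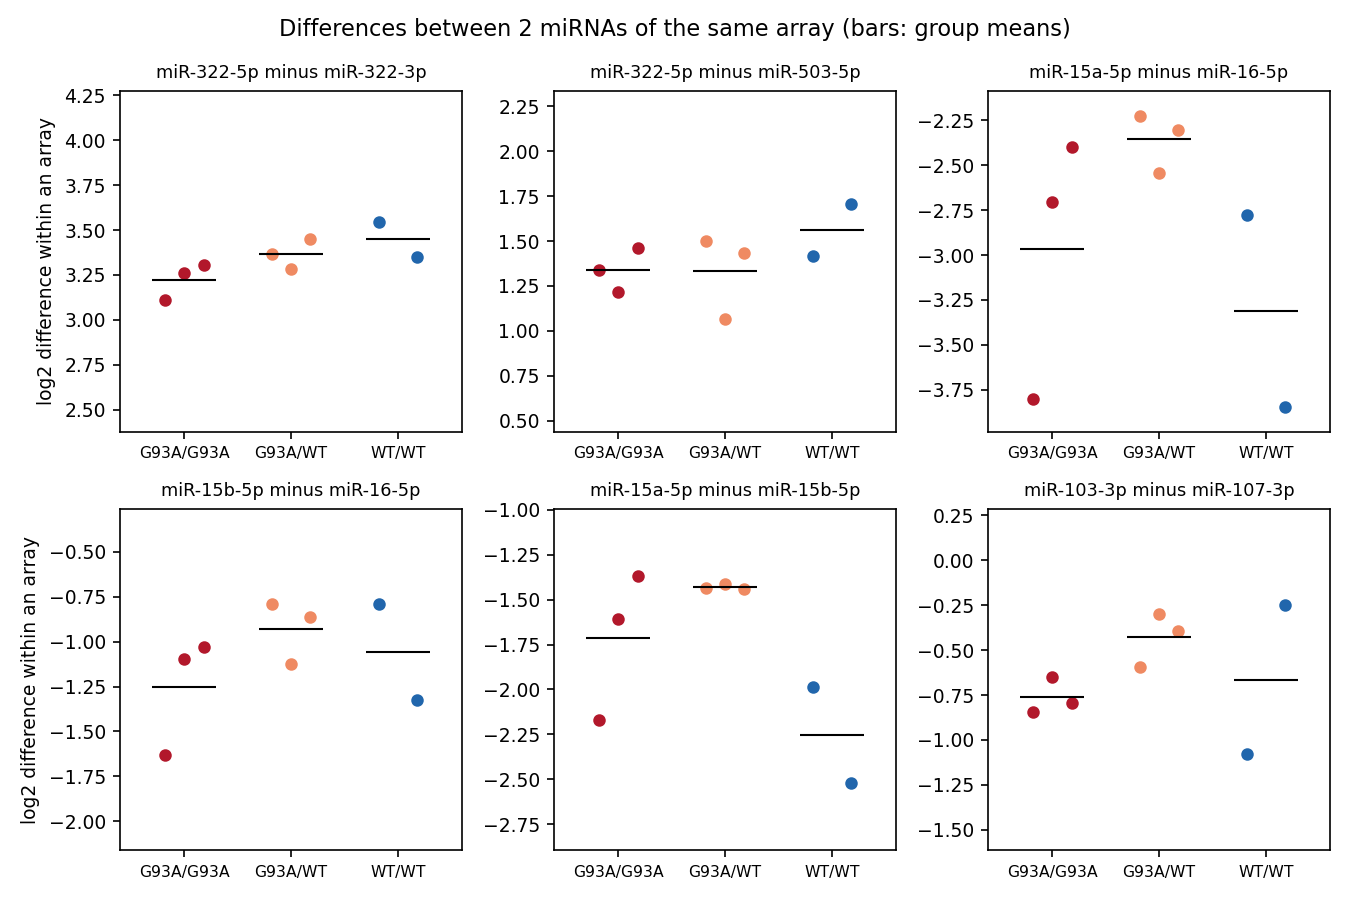
Log2 difference between 2 miRNAs of the same array (y axis, the same span in each panel) for 6 pairs, by group (x axis), with 1 point per array and black bars for group means. For miR-15a-5p minus miR-15b-5p the 3 G93A/WT arrays lie between -1.44 and -1.41, and for miR-103-3p minus miR-107-3p the WT/WT arrays lie at -1.08 and -0.25.

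Members of one seed were not each other's nearest profiles. Likeness was taken as the root mean square difference of log2 profiles over the 8 arrays, after each miRNA's mean was removed, among the 422 other miRNAs detected on every array. It describes these arrays, which share 1 slide and 1 scaling. Relatives of the same seed were sought among the members alone, so miR-497a-5p was not considered there. miR-15a-5p lay nearest to miR-199b-5p (0.19), miR-196b-5p and miR-674-3p (0.23 each), with miR-15b-5p 39th. miR-15b-5p lay nearest to miR-22-3p (0.07), miR-107-3p (0.07) and miR-130a-3p (0.10), with the closest member of its seed, miR-322-5p, 39th. miR-16-5p lay nearest to miR-495-3p, miR-335-5p and miR-381-3p (0.08 to 0.10), with miR-322-5p, the closest member of its seed, 53rd.

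miR-322-5p lay nearest to let-7a-5p, let-7e-5p and miR-24-3p (0.09 each), with its own opposite arm 10th. miR-16-5p, the closest member of its seed, was 36th. miR-322-3p lay nearest to let-7a-5p (0.07), let-7d-5p and let-7e-5p (0.11 each), and miR-503-5p to let-7i-5p (0.10), miR-19b-3p (0.11) and let-7d-5p (0.13). miR-103-3p lay nearest to miR-152-3p (0.16), miR-210-3p (0.18) and miR-26a-5p (0.19), with miR-107-3p 40th. miR-107-3p lay nearest to miR-130a-3p (0.04), miR-15b-5p (0.07) and miR-22-3p (0.09), and miR-103-3p was 144th from it.

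Other miRNAs that act as brakes on the cell cycle or mark muscle differentiation were counted in the same way. Of 20 tested, 6 of which are also among the muscle, erythroid or fibroblast markers, 0 rose and 2 fell in G93A/G93A against WT/WT (8.01% of all tested passed), with a median of -0.30 against -0.01 over all tested. miR-181a-5p, which promotes mouse myoblast differentiation by repressing a Hox gene, was undetected on all G93A/G93A arrays, had 1.89, 2.11 and 1.80 in G93A/WT, and had 2.34 and 2.54 in WT/WT. Counted against the lowest detected signal of each G93A/G93A array, its G93A/G93A level was 3.29-fold lower than WT/WT and 2.31-fold lower than G93A/WT. Neither fold is a lower bound, since an undetected miRNA can lie above the lowest detected signal. The limma fit used the common floor instead. Its differences were -1.84 ± 0.13 against WT/WT (limma, adjusted p = 0.000834) and -1.33 ± 0.12 against G93A/WT (adjusted p = 0.000907). In that fit the G93A/G93A arrays lay at the floor and so had no spread, which makes these p-values smaller. miR-378a-3p, which promotes MyoD activity in mouse, had 6.16, 6.51 and 6.35 in G93A/G93A, 6.67, 6.50 and 6.52 in G93A/WT, and 7.15 and 6.84 in WT/WT, and fell by 0.65 ± 0.15 in G93A/G93A against WT/WT (adjusted p = 0.0448). That call was lost in 17 of the 23 alternatives tried, including those without any 1 of the 8 arrays. In G93A/WT against WT/WT, 0 of 20 passed, beside 4.1% of all tested (median -0.03; 5 at an unadjusted p under 0.05, limma).

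In G93A/G93A against G93A/WT, 0 of the 20 rose and 2 fell, miR-181a-5p and miR-26a-5p (10.6% of all tested passed), with a median of -0.26 against -0.10 over all tested. miR-26a-5p, which promotes mouse myogenesis by repressing Ezh2, had 4.57, 4.84 and 4.91 in G93A/G93A, 5.22, 5.50 and 5.45 in G93A/WT, and 5.18 and 4.97 in WT/WT, and fell by 0.62 ± 0.14 (limma, adjusted p = 0.0299). With row as a block, neither passed in this comparison (adjusted p = 0.101 for miR-181a-5p and 0.605 for miR-26a-5p). The call on miR-26a-5p was also lost without G93A/WT 2, G93A/WT 3, G93A/G93A 1 or G93A/G93A 2, and that on miR-181a-5p in the authors' processed values (adjusted p = 0.397). The muscle miRNAs miR-206-3p and miR-133b-3p differed by -0.27 ± 0.17 and 0.25 ± 0.20 in G93A/G93A against WT/WT and did not pass (adjusted p = 0.359 and 0.488).

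The cell-cycle entry miRNAs, from the miR-17 cluster and its relatives and from miR-221 and its partner miR-222, are known for favouring division. Of 12 listed, miR-106a-5p was not on the array, miR-222-3p was detected on no array and miR-17-5p on 1, so these were not tested. Of 9 tested, 0 passed in any comparison (limma; at an unadjusted p under 0.05 the count was 0 in both comparisons of G93A/G93A and 1 in G93A/WT against WT/WT). At the shares of all tested that passed (8.01%, 4.1% and 10.6%), a count of 0 among 9 says little. Their median was -0.06 in G93A/G93A against WT/WT, 0.17 in G93A/WT against WT/WT and -0.29 in G93A/G93A against G93A/WT. miR-92a-3p differed by -0.01 ± 0.12 in G93A/G93A against WT/WT (limma, adjusted p = 1) and miR-25-3p by -0.13 ± 0.24 (adjusted p = 0.803). In the last comparison 8 of these 9 differences were below 0, beside 58.1% of all tested. So were those of 17 of the 20 brake or differentiation miRNAs and of all 9 members.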

How the data were processed

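Small RNA (18 to 26 nt) was pooled from 3 extractions of medium per sample, and 150 ng was labelled with Cy3, per the labels' protocols. The deposited intensity values are the scanner's total signal per miRNA and its error on 1-colour Agilent arrays, with another deposited column, a flag, telling whether the miRNA was detected. A deposited table of the authors' processed intensity (492 mouse miRNAs) was used as an alternative, and how it was normalized is not stated in the labels or files. Signals were scaled per array to the 75th percentile over the 423 miRNAs detected on all 8 arrays, floored at 1.52 and log2-transformed. Of 538 miRNAs detected on at least 2 arrays, 1 lay at the floor on every array and was left out after the data were seen, which left 537. Groups were taken from the labels and compared with limma 3.58.1 in R 4.3.3, with 1 shared spread, adjusted by Benjamini-Hochberg over 537 (threshold 0.05), and the script was tested on simulated data. Within-array differences were compared by exact permutation tests. Each sample is labelled a biological replicate. The number of arrays limits the precision. Alternatives covered scaling, floor, filter, intensity trend, slide row, replicate number and single arrays. The members, lists and named miRNAs (all members, seed relatives and list members that passed) were chosen with earlier results of these data known.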

Additional observations from a re-analysis of the deposited data

How the results depend on the processing

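In G93A/G93A against WT/WT, 0 members passed under all 23 alternatives, and in G93A/WT against WT/WT 0 passed under 22 of 23, the exception being 1 (miR-15a-5p) without scaling. In G93A/G93A against G93A/WT, 0 passed under 17 of 22: the count was 6 without scaling, which shifts the median of all miRNAs to -0.68, and 1 with the authors' processed values, with miRNAs detected on all arrays alone (fewer were tested) and with the replicate block. Leaving out single arrays gave 0 to 1 there, the 1 being miR-103-3p without G93A/WT 1. The 1 reversed call was miR-322-3p, at 0.69 in the authors' processed values, and the cause was not tested. Of 609 member values under alternatives, 598 kept their side of the threshold and 37 changed sign. The within-array permutation tests could not pass at these sample sizes, so their count of 0 says nothing about stability, and limma on the same differences called 0 (lowest adjusted p 0.233).

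Calls over all miRNAs depended more on the settings. For G93A/G93A against WT/WT the 43 calls became 14 without scaling, 21 with the median of miRNAs numbered below 1000, 7 with the row block, 3 within the shared row, 10 with the replicate block, 18 with only the 2 groups, and 7 to 59 without single arrays. For G93A/WT against WT/WT the 22 became 130 without scaling, 7 in the authors' values, 2 with a doubled floor, 0 among miRNAs detected on all arrays, 8 with the replicate block, and 7 to 59 without single arrays. For G93A/G93A against G93A/WT the 57 became 149 without scaling, 0 with the row block, and 38 to 118 without single arrays. The split moved as well, to 130 higher and 0 lower without scaling in G93A/WT against WT/WT and to 1 higher and 148 lower in G93A/G93A against G93A/WT. Keeping the miRNA at the floor in the fit, chosen after seeing the data, left 0 members called in each comparison.

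The replicate numbers showed no steady pairing of the samples. Deviations of same-numbered G93A/G93A and G93A/WT arrays correlated at -0.19, -0.20 and -0.35. Those of G93A/G93A and WT/WT correlated at -0.17 and -0.22, and those of G93A/WT and WT/WT at 0.15 and 0.21. Deviations are taken from means of 2 or 3 arrays, which partly fixes their signs, so a pairing cannot be decided from them. The 75th percentile over all mouse miRNAs was not run, because it is the value of undetected miRNAs (0.1) on 3 arrays, and G93A/G93A and G93A/WT share no row for a within-row value. With 2 WT/WT arrays, a difference smaller than the distance from its estimate to either end of its interval cannot be told from 0. Dim miRNAs (miR-195a-5p, miR-322-3p) are measured least well.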
